A study of Mus musculus with 34 samples.

Results

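The immunity-related GTPases described here are 7 mouse genes, Irgm1, Irgm2, Igtp, Iigp1, Ifi47, Tgtp1 and Tgtp2, taken by symbol, and each matched 1 of the 54532 Ensembl gene IDs in the count tables. Their transcripts were measured by poly(A) RNA sequencing of blood from wild-type (WT) mice in 4 groups: 7 mice given ALY688+LPS, 4 given LPS, 10 given ALY688 and 9 given PBS. ALY688 is an agonist of the adiponectin receptors, LPS (lipopolysaccharide) is a bacterial cell wall component that triggers systemic inflammation, and PBS is the saline vehicle. The series text speaks of a biomarker experiment on ALY688 and, separately, of a sublethal LPS model, so in each comparison across LPS the agent and the experiment cannot be told apart. The series text names plasma for the experiment without LPS, where every sample label has blood. The sources used here state no dose, sampling time, strain, sex or age, and each library is 1 numbered mouse.

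Immunity-related GTPases are interferon-induced proteins that mouse cells use against bacteria and protozoa living in vacuoles. The effectors, here Iigp1 (Irga6), Ifi47 (Irgd) and the near-identical pair Tgtp1 and Tgtp2 (Irgb6), load onto the vacuole and take part in breaking it. The regulators Irgm1, Irgm2 and Igtp (Irgm3) sit on the cell's own membranes and hold the effectors inactive there. Interferon-gamma acts on its target genes through gamma-activated sites (GAS), and type I interferon through interferon-stimulated response elements (ISRE).

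In GENCODE M21 (GRCm38), 6 of the 7 genes lie on chromosome 11 and all 7 are protein coding. Irgm1 spans chr11:48861968-48871683 on the minus strand, Tgtp1 chr11:48985327-48994172 and Tgtp2 chr11:49057194-49064206, both minus, and Ifi47 chr11:49076587-49096974 on the plus strand. Igtp, at chr11:58199556-58207591, overlaps Irgm2, at chr11:58199618-58222782, on the same plus strand, and the pair share 162 exonic bases, 8.01% of Igtp and 4.39% of Irgm2. Ifi47 shares 4.29% of its exonic bases with Gm12188 on the other strand and 4.49% with Olfr56 on its own, and whether counting used strand is not stated. Of all 100-base stretches of their transcripts, 73.1% in Tgtp1 and 76.8% in Tgtp2 also occur in another gene, namely the other one of the pair or Gm12185. The share was at most 5.16% in the other members. How reads that fit several genes were counted is not stated, so the split of reads between Tgtp1 and Tgtp2 is uncertain. Their sum does not depend on that split, but would lack any reads dropped for fitting both.

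RefSeq promoter windows (GRCm38.p6) were available for 6 of the 7 members, Iigp1 being the exception. The 250 bases before the annotated start were searched on both strands for the ISRE letters, GAAA and GAAA with any 2 bases between them, and for the GAS letters, TTC and GAA with any 3 bases between them. The ISRE letters occurred in 5 of these 6 windows, against 2.98% of the 32841 promoter windows of that length in the table, and the GAS letters in 4 of the 6, against 7.02% of all. Irgm1 held 2 overlapping ISRE matches and no GAS match, and Ifi47 held neither. In Irgm2, Igtp, Tgtp1 and Tgtp2 the GAS match stood immediately before the ISRE match, with a pair of bases between them. The stretches around these matches are shown because they differ between a gene that had the ISRE letters alone and the 4 that had both, with the matched letters in capitals, each 5′ to 3′ on the gene's own strand.
Irgm1, chr11:48871421-48871490, minus: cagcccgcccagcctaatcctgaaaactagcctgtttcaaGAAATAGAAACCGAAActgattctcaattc
Irgm2, chr11:58214873-58214962, plus: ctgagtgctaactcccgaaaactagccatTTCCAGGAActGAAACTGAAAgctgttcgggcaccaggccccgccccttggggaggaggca
Igtp, chr11:58199482-58199555, plus: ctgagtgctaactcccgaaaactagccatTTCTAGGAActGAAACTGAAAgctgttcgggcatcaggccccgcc
Tgtp1, chr11:48992274-48992363, minus: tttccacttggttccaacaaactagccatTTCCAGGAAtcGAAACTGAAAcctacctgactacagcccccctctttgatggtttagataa
Tgtp2, chr11:49064233-49064322, minus: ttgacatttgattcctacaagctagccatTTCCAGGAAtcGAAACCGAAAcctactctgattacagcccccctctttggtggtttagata
The start here is that of RefSeq, and the stretches of Irgm1, Irgm2 and Tgtp1 lie inside the GENCODE spans given above. These are letter matches in the reference sequence and say nothing about binding in these mice.

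The 30 libraries held 9554964 to 17338214 counts, of which globin genes, the haemoglobin transcripts of young red cells, took 18.4% to 64.3%. Levels are CPM, counts scaled to a common library size, after TMM scaling (a correction for libraries dominated by few genes), with factors of 0.333 to 2.52. A count of 3, taken as the limit of detection (counting error only), stood between 0.0688 and 0.904 CPM on that scale. PBS mice 5, 6 and 9, ALY688 mouse 7 and ALY688+LPS mice 6 and 8 had under 16000 genes with a count, and called results are given without them where that ends a call or moves a value by over 1.5 times. Blood was checked against markers of 7 cell types, and all 69 marker genes in the tables had counts in every library. Neutrophil markers were higher with LPS, with summed levels of 5598 to 13250 CPM in ALY688+LPS mice and 4127 to 14230 in LPS mice, against 531 to 1444 in ALY688 mice and 585 to 2214 in PBS mice. B cell markers were lower, with sums of 223 to 996 CPM in ALY688+LPS mice and 160 to 424 in LPS mice, against 1204 to 2534 in ALY688 mice and 913 to 2824 in PBS mice. In bulk blood, fewer cells of a type and less RNA per cell cannot be told apart, and whether this shift in cell markers bears on the members was not tested.

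**Figure D1:**
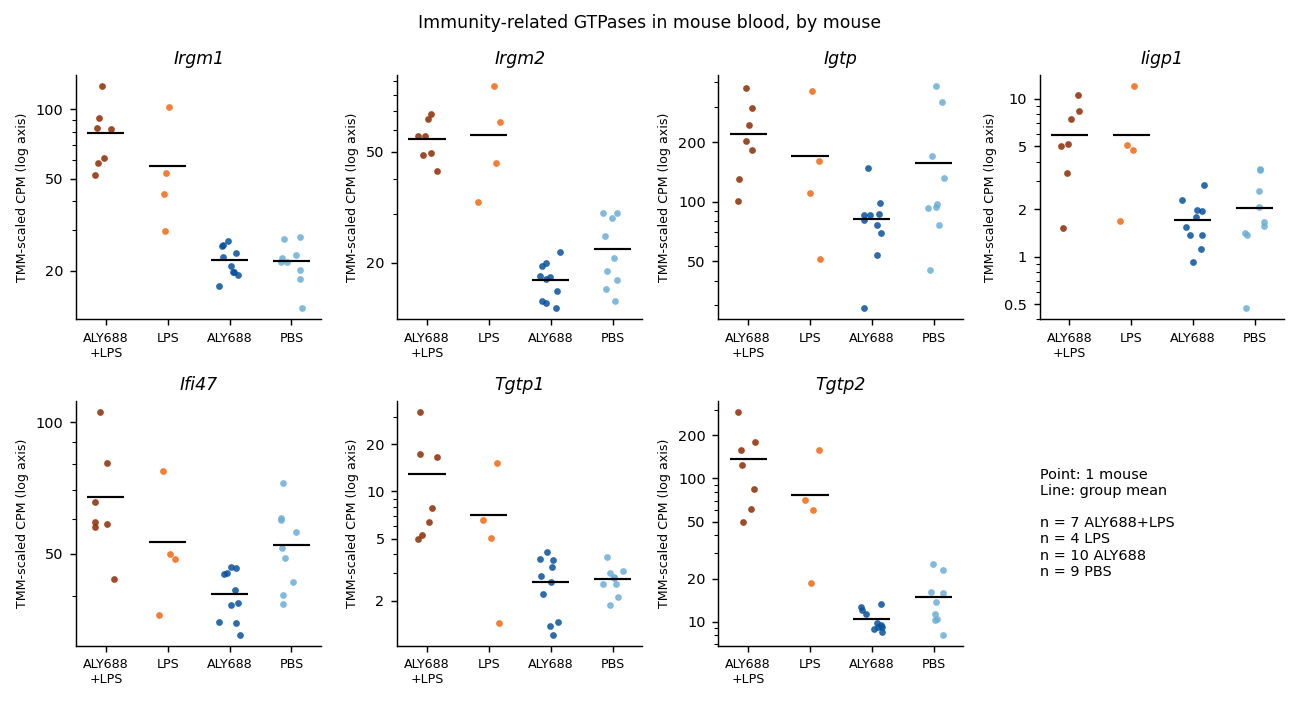
TMM-scaled CPM of each immunity-related GTPase on a log axis, with 1 point per mouse and a line at the group mean. Irgm1 and Irgm2 separate the groups given LPS from those without it, Igtp spreads widely within every group, and LPS mouse 7 is the highest LPS point in all 7 panels.

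Igtp was the most abundant member per kb of exon in every group, and Iigp1 the least abundant. These places, and the shares below, rest on the reads as counted. Those of Tgtp1 and Tgtp2 would be too low if reads fitting both genes were dropped, which is not stated. Igtp averaged 108.1 ± 47.0 CPM per kb in ALY688+LPS mice (SD, n = 7), 84.5 ± 66.5 in LPS mice (n = 4), 40.3 ± 15.1 in ALY688 mice (n = 10) and 77.6 ± 58.0 in PBS mice (n = 9). Iigp1 averaged 1.02 ± 0.529, 1.01 ± 0.758, 0.294 ± 0.0980 and 0.348 ± 0.179 CPM per kb in the same groups. The place that moved was that of Tgtp2: it came after Igtp with LPS, at 46.3 ± 28.6 CPM per kb in ALY688+LPS mice and 26.3 ± 19.95 in LPS mice, and without LPS it lay well below Ifi47, at 3.56 ± 0.602 in ALY688 mice and 5.06 ± 2.00 in PBS mice. Ifi47 averaged 27.2 ± 8.13, 21.5 ± 7.03, 16.3 ± 2.14 and 21.1 ± 4.48 CPM per kb in ALY688+LPS, LPS, ALY688 and PBS mice.

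Several neighbours in that order did not differ beyond their spread between mice. Tgtp2 lay above Ifi47 per kb in 5 of 7 ALY688+LPS mice and in 3 of 4 LPS mice, and Irgm2 above Irgm1 in 5 of 7 ALY688+LPS mice. Without LPS, Irgm1 lay above Tgtp2 in 6 of 10 ALY688 mice, while in PBS mice Irgm2 lay above Tgtp2 in 7 of 9 and Tgtp2 above Irgm1 in 7 of 9. By reads as counted, the first and last places held in every mouse. Igtp was above the next member, and Tgtp1 above Iigp1, in 7 of 7, 4 of 4, 10 of 10 and 9 of 9 mice. Tgtp2 made up a median 19.6% of the members' summed CPM per kb in ALY688+LPS mice (range 15.2% to 26.3%) and 16.6% in LPS mice (10.4% to 17.6%), against 4.73% in ALY688 mice (3.57% to 10.3%) and 4.12% in PBS mice (3.31% to 6.72%). Its share in every mouse with LPS was above that in every mouse without it, by a narrow margin between LPS mouse 6 (10.39%) and ALY688 mouse 1 (10.35%). Such a share also moves with the levels of the other members, Igtp above all. How often a gene's share separates mice in this way was not computed.

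**Figure D2:**
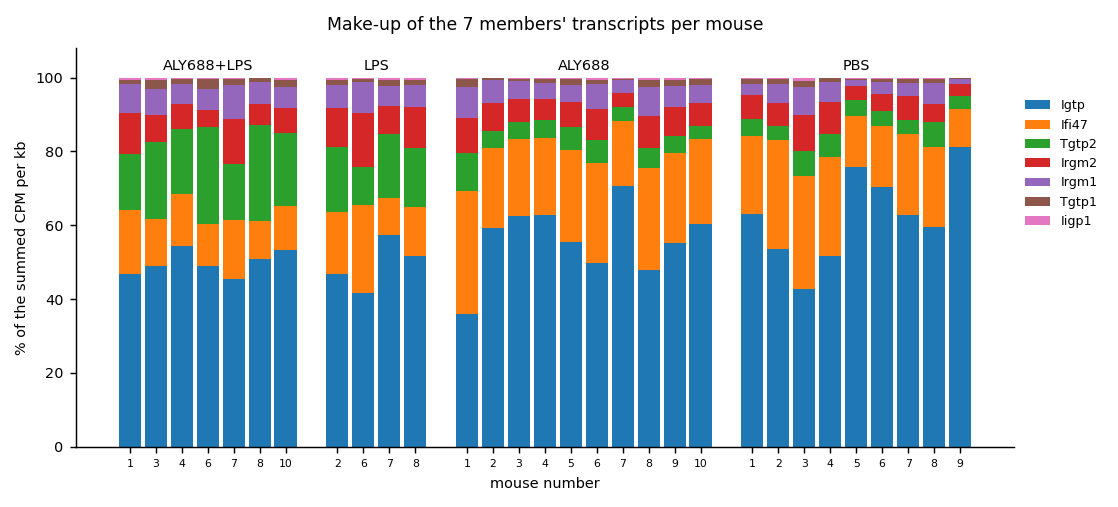
Share of each member in the summed CPM per kb of all 7 members, as stacked bars with 1 bar per mouse (y axis, percent; x axis, mouse number within its group). Tgtp2 takes 10.4% to 26.3% in the ALY688+LPS and LPS mice and 3.31% to 10.3% in the ALY688 and PBS mice. How often a gene's share separates mice in this way was not computed.

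The effect of LPS without ALY688 was asked with LPS against PBS. In that comparison 5 of the 7 members were higher at an adjusted p below 0.05, by edgeR's quasi-likelihood test with Benjamini-Hochberg adjustment over the 12353 genes tested, of which 20.9% were called higher, 17.9% lower and 38.7% in either direction. The 5 were the regulators Irgm1 and Irgm2 and the effectors Iigp1, Tgtp1 and Tgtp2, while Igtp and Ifi47 did not pass. The median log2 fold change of the members was 1.37, beside −0.04 over all genes tested.

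Irgm1 stood at 42.8, 29.7, 102.4 and 52.9 CPM in LPS mice 2, 6, 7 and 8, against a lowest, median and highest of 13.7, 21.8 and 27.9 CPM in PBS mice. All 4 LPS mice lay above all 9 PBS mice, with a log2 fold change of 1.38 ± 0.25 (SE, adjusted p = 0.000493). Irgm2 stood at 45.5, 33.0, 86.3 and 64.1 CPM in the same LPS mice, against 14.6, 20.9 and 30.1 CPM in PBS mice. It too did not overlap between the groups and had a log2 fold change of 1.37 ± 0.24 (adjusted p = 0.000388). Of the genes tested, 13.2% had all LPS mice above all PBS mice and 5.92% had them all below.

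Of the effectors, Tgtp2 had the largest difference. It stood at 60.5, 18.7, 158 and 71.1 CPM in LPS mice 2, 6, 7 and 8, against 8.12, 13.6 and 25.3 CPM (lowest, median, highest) in PBS mice. LPS mouse 6 fell within the PBS range and the other 3 LPS mice lay above it. The log2 fold change was 2.41 ± 0.39, or 5.31-fold (adjusted p = 0.000212), and 1.80 (adjusted p = 0.00118) without LPS mouse 7. Tgtp1 stood at 5.04, 1.44, 15.1 and 6.54 CPM in LPS mice, against 1.88, 2.80 and 3.79 CPM in PBS mice, with a log2 fold change of 1.31 ± 0.39 (adjusted p = 0.0155). Here LPS mouse 6 was below every PBS mouse. With the reads of Tgtp1 and Tgtp2 added, which does not depend on how reads were split between them, the log2 fold change was 2.28 (adjusted p = 0.000197).

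Iigp1 stood at 4.71, 1.67, 12.1 and 5.08 CPM in LPS mice 2, 6, 7 and 8, against 0.471, 1.66 and 3.61 CPM in PBS mice. LPS mouse 6 lay among the PBS mice, and the log2 fold change was 1.56 ± 0.44 (adjusted p = 0.0102). The calls of Iigp1 and Tgtp1 were not stable. Without LPS mouse 7 their log2 fold changes were 0.97 (adjusted p = 0.0783) and 0.65 (adjusted p = 0.145), and 3 of 7 members were called. With all 4 LPS mice, limma-voom gave them 1.12 (adjusted p = 0.0707) and 0.59 (adjusted p = 0.34). Tgtp1 also missed the threshold without the libraries under 16000 genes (log2 fold change 1.14, adjusted p = 0.0573). Irgm1, Irgm2 and Tgtp2 stayed below 0.05 without any single library, with adjusted p of at most 0.00228.

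Ifi47 stood at 48.6, 36.2, 77.4 and 50.03 CPM in LPS mice 2, 6, 7 and 8, against 38.3, 51.7 and 72.6 CPM in PBS mice. The groups overlapped, and the log2 fold change of 0.03 ± 0.21 had a 95% interval of −0.42 to 0.49 (adjusted p = 0.921). Igtp stood at 110.5, 51.5, 361 and 160.1 CPM in LPS mice, against 45.4, 97.5 and 385 CPM in PBS mice. No LPS mouse exceeded the highest PBS mouse, and the log2 fold change of 0.14 ± 0.55 had a 95% interval of −1.03 to 1.31 (adjusted p = 0.858). Without the libraries under 16000 genes it had 0.89 (adjusted p = 0.112). For Igtp and Ifi47 the direction turned when LPS mouse 7 was left out, to −0.52 (adjusted p = 0.511) and −0.19 (adjusted p = 0.516), and neither was called. Both were called higher in scaling by library totals without TMM, at 1.29 (adjusted p = 0.00112) and 1.06 (adjusted p = 0.0103), where the median of all genes tested was itself shifted to 1.04. Both were also called higher with the globin percentage of the library as a covariate, at 3.10 (adjusted p = 0.00177) and 1.04 (adjusted p = 0.0142), where the median of all genes was −0.02. Globin took 18.45% to 43.66% of counts in LPS mice and 45.14% to 64.34% in PBS mice. As these ranges do not overlap, the covariate and the group cannot be cleanly separated in that fit.

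The same question was asked in mice that all received ALY688, with ALY688+LPS against ALY688. All 7 members were higher at an adjusted p below 0.05, where 26.4% of the 12266 genes tested were called higher, 26.6% lower and 53% in either direction. Their log2 fold changes ran from 0.74 for Ifi47 to 3.70 for Tgtp2, with a median of 1.81 beside −0.05 over all genes tested. Irgm1, Irgm2, Tgtp1 and Tgtp2 did not overlap between the groups, and 12.6% of the genes tested had all ALY688+LPS mice above all ALY688 mice and 6.53% had them all below.

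Tgtp2 stood at 49.8, 125 and 291 CPM (lowest, median, highest) in the 7 ALY688+LPS mice, against 8.49, 9.66 and 13.4 CPM in the 10 ALY688 mice. The lowest ALY688+LPS mouse was thus well above the highest ALY688 mouse, and the log2 fold change was 3.70 ± 0.29 (adjusted p = 5.34e-09). Its fold change ranked 96 from the highest among the 12266 genes tested. Tgtp1 stood at 4.96, 7.87 and 32.1 CPM in ALY688+LPS mice, against 1.22, 2.75 and 4.13 CPM in ALY688 mice, with a log2 fold change of 2.22 ± 0.37 (adjusted p = 6.55e-05). With the reads of the pair added, the log2 fold change was 3.50 (adjusted p = 8.71e-09). The number of Tgtp2 reads per Tgtp1 read had medians of 9.38 in ALY688+LPS mice, 11.4 in LPS mice, 4.37 in ALY688 mice and 5.27 in PBS mice, a ratio that the uncertain split of shared reads touches directly.

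Iigp1, the least abundant effector, stood at 1.52, 5.15 and 10.5 CPM in ALY688+LPS mice, against 0.926, 1.66 and 2.82 CPM in ALY688 mice. The lowest of the ALY688+LPS mice, mouse 8, fell within the ALY688 range with 6 reads, and the log2 fold change was 1.81 ± 0.29 (adjusted p = 2.62e-05). Ifi47 stood at 43.8, 59.2 and 105.5 CPM in ALY688+LPS mice, against 32.7, 39.95 and 46.5 CPM in ALY688 mice. Of the 7 ALY688+LPS mice 6 lay above every ALY688 mouse, and the log2 fold change was 0.74 ± 0.14 (adjusted p = 0.000209). Without TMM scaling Ifi47 had the same log2 fold change of 0.74 but an adjusted p of 0.0863.

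Among the regulators, Irgm1 stood at 51.9, 81.7 and 127 CPM in ALY688+LPS mice, against 17.1, 21.9 and 26.7 CPM in ALY688 mice, with a log2 fold change of 1.84 ± 0.15 (adjusted p = 7.38e-09). Irgm2 stood at 42.6, 56.8 and 68.3 CPM in ALY688+LPS mice, against 13.8, 17.6 and 21.8 CPM in ALY688 mice. It had the smallest SD relative to its mean of the 7 members in ALY688+LPS mice, and a log2 fold change of 1.68 ± 0.11 (adjusted p = 3.1e-10). Igtp stood at 101.4, 203 and 374 CPM in ALY688+LPS mice, against 29.0, 83.4 and 148 CPM in ALY688 mice, where 5 of the 7 ALY688+LPS mice exceeded every ALY688 mouse. Its log2 fold change was 1.43 ± 0.28 (adjusted p = 0.000221). The 7 calls held without any single library, with adjusted p of at most 0.00106.

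**Figure D3:**
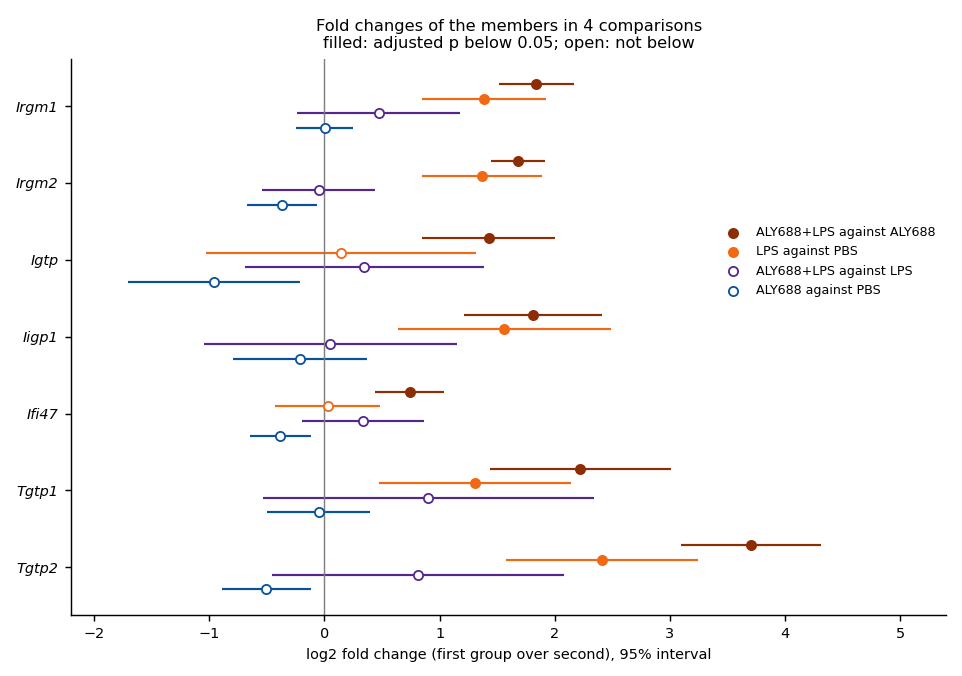
Log2 fold changes (x axis) of the 7 members (y axis) with 95% intervals in 4 comparisons, where filled points have an adjusted p below 0.05 and open points do not. In ALY688+LPS against ALY688 all 7 points are filled, in LPS against PBS those of Igtp and Ifi47 are open, and in ALY688+LPS against LPS and ALY688 against PBS all are open.

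Igtp followed the platelet markers from mouse to mouse. Over the 30 libraries, the deviations of Igtp from its group means (log2 CPM with a prior count of 2) had a Pearson r of 0.938 and a Spearman rho of 0.945 with those of the summed level of 10 platelet markers, a sum that includes the platelet chemokine Ppbp and the integrin Itga2b. The r was 0.925 without the 2 libraries farthest out in platelet markers, 0.919 in the 24 libraries with at least 16000 genes, and 0.767 with library totals in place of TMM, a setting chosen after seeing the data. Within groups it was 0.828 in 7 ALY688+LPS mice, 0.986 in 10 ALY688 mice and 0.990 in 9 PBS mice. For Irgm1 the r over the 30 libraries was 0.240 and for Irgm2 0.495. These correlations are descriptions of libraries in which both quantities share the scaling and the depth.

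The extremes show the span of this relation. PBS mouse 9 had the highest platelet marker sum, 31390 CPM, and the highest Igtp of all libraries, 385 CPM, and ALY688 mouse 1 had the lowest of both, 771 CPM and 29.0 CPM. PBS mouse 9 is among the libraries under 16000 genes, and its place for Igtp depends on the scaling. On library totals without TMM it had 149.5 CPM of Igtp, below LPS mouse 7 at 344.3 CPM. ALY688 mouse 1 was still the lowest there, at 37.5 CPM. Per 1000 CPM of platelet markers there were 25.4, 53.5 and 87.7 CPM of Igtp in ALY688+LPS mice (lowest, median, highest), against 10.98, 16.44 and 37.6 CPM in ALY688 mice. In LPS mice 2, 6, 7 and 8 there were 43.0, 36.3, 49.3 and 40 CPM, against 12.3, 15.3 and 24.0 CPM (lowest, median, highest) in PBS mice. All 4 LPS mice were above all 9 PBS mice on this measure, which was chosen after the values were seen and is given without a test. Such a ratio rises for any gene that falls less than the platelet markers do. The share of all genes that separate the groups in this way was not computed. The platelet markers themselves were lower with LPS, with 4 of 10 called lower in LPS against PBS, where 17.9% of all genes were called lower, and a median log2 fold change of −1.72. Their sums were 1419 to 7323 CPM in LPS mice and 1891 to 31390 CPM in PBS mice. What share of the Igtp reads comes from platelets was not tested.

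**Figure D4:**
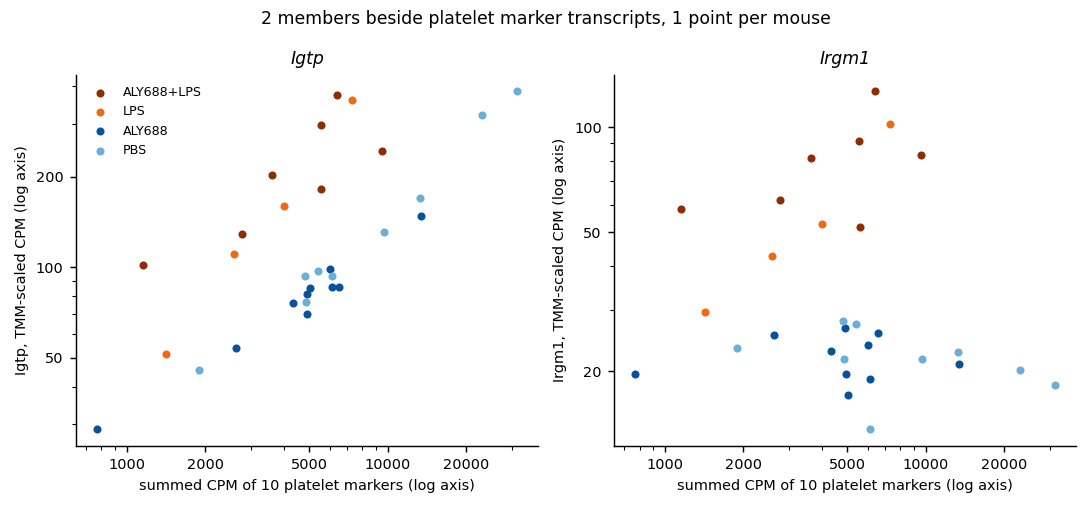
TMM-scaled CPM of Igtp (left) and Irgm1 (right) against the summed CPM of 10 platelet markers, both axes log, with 1 point per mouse coloured by group. Igtp climbs with the platelet markers in every group, whereas Irgm1 shows r = 0.240 over deviations from group means. The ratio of Igtp to the platelet sum overlaps between ALY688+LPS and ALY688 mice and not between LPS and PBS mice, a measure chosen after the values were seen. It rises for any gene that falls less than the platelet markers do. The share of all genes that separate in this way was not computed.

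Among the other members, Tgtp2 had an r of 0.738 with the summed red cell markers, Irgm2 of 0.692 with neutrophil markers and Ifi47 of 0.636 with platelet markers. With library totals in place of TMM these were 0.0243, 0.812 and −0.0657, so those of Tgtp2 and Ifi47 depend on the scaling. Iigp1 had an r between −0.209 and 0.308 with each of the 7 cell types, but of 0.522 with red cell markers in the 24 libraries with at least 16000 genes and of 0.687 with T cell markers on library totals. Red cell marker sums ran from 149300 to 1504000 CPM in ALY688+LPS mice, from 75660 to 490500 in LPS mice, from 331800 to 1950000 in ALY688 mice and from 327900 to 1944000 in PBS mice.

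**Figure D5:**
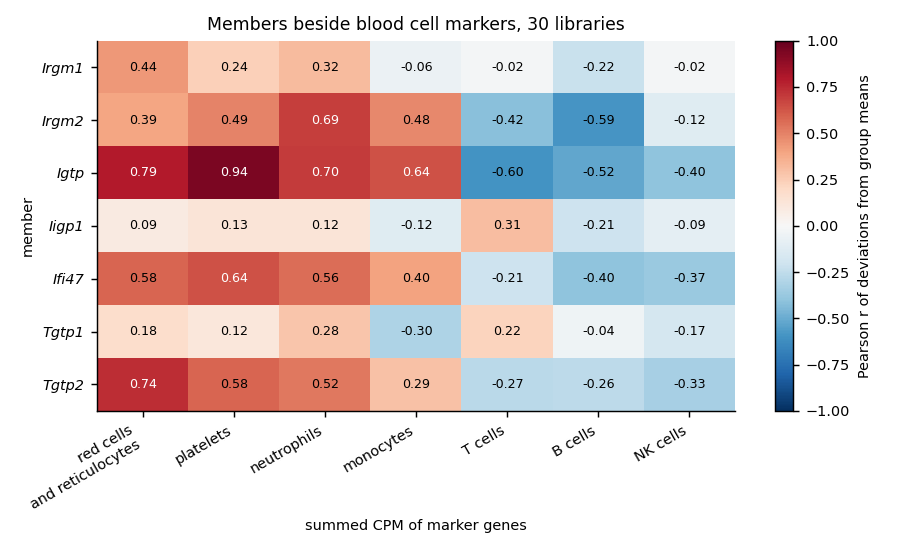
Pearson r over 30 libraries between each member (rows) and the summed CPM of the markers of each blood cell type (columns), both as log2 deviations from group means. The highest value is Igtp with platelets (0.938), and the row of Iigp1 runs from −0.209 (B cells) to 0.308 (T cells).

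Whether ALY688 changed the members under LPS was asked with ALY688+LPS against LPS. None of the 7 was called by edgeR's quasi-likelihood test, and 0% of the 12741 genes tested were called in either direction. At an unadjusted p below 0.05 the count of members was 0 with edgeR, 0 with DESeq2 and 0 with limma-voom, against 464 of all genes with edgeR. Irgm1 averaged 79.3 ± 25.5 CPM in ALY688+LPS mice (SD, n = 7) and 57.0 ± 31.8 CPM in LPS mice (n = 4), with a log2 fold change of 0.47 and a 95% interval of −0.24 to 1.18. Irgm2 averaged 55.5 ± 9.28 CPM in ALY688+LPS mice and 57.2 ± 23.2 CPM in LPS mice, with a log2 fold change of −0.05 and an interval of −0.54 to 0.44. This interval is the narrowest of the 7.

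The other 5 members had intervals that also held 0. Tgtp2 averaged 136 ± 84.2 CPM in ALY688+LPS mice and 77.2 ± 58.6 CPM in LPS mice, with a log2 fold change of 0.81 and an interval of −0.46 to 2.08. Tgtp1, at 12.9 ± 9.94 CPM in ALY688+LPS mice and 7.03 ± 5.78 CPM in LPS mice, had 0.90 with an interval of −0.54 to 2.34. Both intervals are wide, so with 4 LPS mice the size of a difference in this pair was not resolved. Ifi47 averaged 67.3 ± 20.1 CPM in ALY688+LPS mice and 53.1 ± 17.4 CPM in LPS mice, with a log2 fold change of 0.33 and an interval of −0.20 to 0.87. Igtp had 0.35 (−0.69 to 1.38) and Iigp1 0.05 (−1.05 to 1.15). Without LPS mouse 7 the values were 1.58 for Tgtp1, 1.45 for Tgtp2, 1.03 for Igtp and 0.67 for Iigp1, none called, and with the globin covariate that of Tgtp2 was 0.03. With all mice the adjusted p was at least 0.913 for each member.

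Without LPS, ALY688 against PBS gave no called member either, and 0% of the 11708 genes tested were called. At an unadjusted p below 0.05 the members numbered 4 with edgeR, where 1250 of all genes did, 4 with DESeq2 (1656 of all), 2 with limma-voom (977 of all) and 1 with the globin covariate (292 of all). With edgeR on library totals without TMM 0 members did (791 of all), and without the libraries under 16000 genes 1 did (422 of all). All 4 of the edgeR members had lower means with ALY688 after TMM scaling. Without TMM, Irgm2, Ifi47 and Tgtp2 had log2 fold changes above 0 (0.234, 0.196 and 0.156), where the median of all genes was 0.496. Ifi47 averaged 40.3 ± 5.28 CPM in ALY688 mice (SD, n = 10) and 52.3 ± 11.1 CPM in PBS mice (n = 9), with a log2 fold change of −0.38 and a 95% interval of −0.65 to −0.12 (edgeR's adjusted p = 0.442). Tgtp2 averaged 10.5 ± 1.77 CPM in ALY688 mice and 14.9 ± 5.87 CPM in PBS mice, at −0.50 (−0.89 to −0.12, adjusted p = 0.442). Irgm2 averaged 17.3 ± 2.67 CPM in ALY688 mice and 22.4 ± 6.24 CPM in PBS mice, at −0.37 (−0.67 to −0.07, adjusted p = 0.442). The ranges of both groups overlapped in each case.

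Igtp, the fourth, averaged 81.4 ± 30.5 CPM in ALY688 mice and 157 ± 117 CPM in PBS mice, with a log2 fold change of −0.96 (−1.71 to −0.21, adjusted p = 0.442). The platelet markers had a median log2 fold change of −1.05 in the same comparison, with all 10 below 0 and none called, and sums of 771 to 13440 CPM in ALY688 mice and 1891 to 31390 CPM in PBS mice. Without the libraries under 16000 genes, the log2 fold changes were −0.29 for Igtp, −0.29 for Ifi47, −0.23 for Tgtp2 and −0.19 for Irgm2, with an adjusted p of 0.987 for each. Iigp1 and Tgtp1 had −0.21 and −0.05, and Irgm1, with means of 22.1 ± 3.28 CPM in ALY688 mice and 21.9 ± 4.34 CPM in PBS mice, had 0.00 with an interval of −0.25 to 0.25.

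The interaction, the log2 fold change of ALY688+LPS over LPS less that of ALY688 over PBS, asks whether ALY688 went with a different response to LPS. No member was called, and 0% of the 13476 genes tested were called by edgeR, while DESeq2 called 4 genes, none of them members. At an unadjusted p below 0.05 edgeR had 3 members and 1216 of all genes, DESeq2 3 and 1558, and limma-voom 2 and 1054, while the globin covariate and library totals without TMM each left 0 members. All 7 values were above 0, and the 3 from edgeR were Ifi47 at 0.71 ± 0.25 (p = 0.00788), Tgtp2 at 1.31 ± 0.52 (p = 0.0173) and Igtp at 1.30 ± 0.62 (p = 0.0434), each with an adjusted p of 0.507. They stood at 0.50, 0.54 and 0.38 without the libraries under 16000 genes, each with an adjusted p of 0.999. All 10 platelet markers also had values above 0, with a median of 1.51 and none called. The same interaction is the test of whether the LPS difference of Igtp and Ifi47 was larger in ALY688 mice than beside PBS mice, and it was not called.

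Other genes of the same pathway were read from lists chosen with earlier results of these data known. Of 9 further loci of the GTPase family, 7 were tested in LPS against PBS. None was called higher and 2 were called lower, beside 20.9% and 17.9% of all genes. These were Irgq at −0.71 ± 0.20 (adjusted p = 0.0112) and Irgc1 at −1.77 ± 0.59 (adjusted p = 0.0268), both on chromosome 7. Irgc1 lay near the limit of detection, with 2 to 22 reads in LPS mice and 0 to 38 in PBS mice, and its groups overlapped. In ALY688+LPS against ALY688, Gm12250, annotated as a processed pseudogene on chromosome 11, was called higher at 1.11 ± 0.16 (adjusted p = 9.28e-06), as was Gm5431 at 0.84 ± 0.21 (adjusted p = 0.0019). Irgq and Irgc1 were called lower, at −1.20 ± 0.13 (adjusted p = 2.99e-07) and −1.62 ± 0.41 (adjusted p = 0.00225). Of all genes, 26.4% were called higher there and 26.6% lower. Irgc1 was again low, with 0 to 16 reads in ALY688+LPS mice and 3 to 36 in ALY688 mice. The loci 9930111J21Rik1, 9930111J21Rik2 and Gm12185 were called in neither comparison, with log2 fold changes from −0.46 to −0.04.

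Iigp1 spans chr18:60376027-60392634 on the plus strand, and a further pair of family loci on that chromosome had reads almost only with LPS and were too low for the test. F830016B08Rik had 166 reads in all over the 7 ALY688+LPS mice and 81 over the 4 LPS mice, against 1 over the 10 ALY688 mice and 1 over the 9 PBS mice. Every mouse with LPS had at least 4 reads of it. Gm4951 had 54 reads over the ALY688+LPS mice and 22 over the LPS mice, against 3 over the ALY688 mice and 1 over the PBS mice. Levels in the groups without LPS were at or under the limit of detection.

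Of the interferon-gamma branch, 3 of 11 tested genes were higher in LPS against PBS, a share near the 20.9% of all genes: the receptor chains Ifngr2 at 1.17 ± 0.15 (adjusted p = 2.12e-05) and Ifngr1 at 0.99 ± 0.18 (adjusted p = 0.000495), and the transcription factor Irf1 at 0.40 ± 0.15 (adjusted p = 0.0385). The cytokine gene Ifng itself averaged 0.943 ± 0.564 CPM in LPS mice and 0.545 ± 0.362 CPM in PBS mice and did not pass (0.82 ± 0.51, adjusted p = 0.219). In ALY688+LPS against ALY688, 5 of 11 were higher and 2 lower, beside 26.4% and 26.6% of all genes. Ifngr2 and Ifngr1 rose by 1.26 ± 0.10 and 1.06 ± 0.10 on the log2 scale, and Irf8, a myeloid and B cell factor, fell by 0.66 ± 0.14 (adjusted p = 0.000404). Ifng averaged 0.944 ± 0.541 CPM in ALY688+LPS mice and 0.631 ± 0.315 CPM in ALY688 mice (0.65 ± 0.36, adjusted p = 0.142).

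The type I interferon branch had 6 of 8 tested genes higher in LPS against PBS, beside 20.9% of all genes. The cytokine gene on that list, Ifnb1, named after its values were seen, had 0 reads in every library and was not tested. Usp18, a brake on the type I receptor, had 3.19 ± 0.42 (adjusted p = 3.13e-05), the receptor chains Ifnar2 and Ifnar1 had 1.40 ± 0.20 and 0.79 ± 0.16, and the transcription factor Irf7 had 2.46 ± 0.52 (adjusted p = 0.00149). In ALY688+LPS against ALY688 the count was 6 of 8 higher and 1 lower, beside 26.4% and 26.6% of all genes. Usp18 had 4.44 ± 0.37 (adjusted p = 1.35e-08), Irf7 3.88 ± 0.41, Ifnar2 1.83 ± 0.24 and Irf9 0.79 ± 0.10. The lower one, named after its values were seen, was Irf3 at −0.43 ± 0.12. Irf7 averaged 2529 ± 1937 CPM in ALY688+LPS mice and 171 ± 67.7 CPM in ALY688 mice.

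Guanylate-binding proteins, interferon-induced GTPases that act on the same vacuoles, moved unevenly. In LPS against PBS 2 of 8 tested were higher, also near the 20.9% of all genes, Gbp2 at 3.82 ± 0.47 (adjusted p = 1.75e-05) and Gbp7 at 1.86 ± 0.28 (adjusted p = 7.14e-05), while Gbp5 and Gbp3 had 0.37 ± 0.22 and 0.33 ± 0.25 and did not pass. In ALY688+LPS against ALY688, 3 of 9 were higher and 1 lower, beside 26.4% and 26.6% of all genes. Those higher were Gbp2 at 4.54 ± 0.39, Gbp7 at 2.35 ± 0.27 and Gbp5 at 0.62 ± 0.12, and Gbp8 was lower at −0.97 ± 0.25 (adjusted p = 0.00305). All 5 guanylate-binding protein genes with a RefSeq promoter window held the ISRE letters and 2 held the GAS letters. Of the autophagy genes, whose conjugation system places immunity-related GTPases on vacuoles, 2 of 13 were higher and 4 lower in LPS against PBS, beside 20.9% and 17.9% of all genes, with Atg3, the conjugating enzyme, at 1.19 ± 0.14 (adjusted p = 1.15e-05) and Gabarapl2 and Gabarapl1, which are coupled to membranes, at −2.12 ± 0.63 and −2.15 ± 0.64, and Map1lc3a at −0.99 ± 0.33. In ALY688+LPS against ALY688 3 of 13 were higher and none lower, beside 26.4% and 26.6% of all genes. Atg3 had 1.44 ± 0.09 (adjusted p = 1.22e-10), Atg5 0.57 ± 0.14 and Trim21 0.41 ± 0.10. Of the genes of these 5 lists, edgeR called none in ALY688+LPS against LPS, in ALY688 against PBS or in the interaction.

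From mouse to mouse within groups, the members went together to a moderate degree. The 21 pairs had a median r of 0.624 over 30 libraries, from 0.274 for Igtp and Iigp1 to 0.777 for Ifi47 and Tgtp2. The candidates were 10692 genes with a mean of at least 1 CPM, leaving out predicted genes such as Gm and Rik symbols. Those nearest to the members' mean were Ifit1bl1 (r = 0.908), H2-T22 (0.906), Usp18 (0.855), Ifit3b (0.847) and Gbp2 (0.837). The nearest gene to each member was Ifit1bl1 for Irgm1 (0.782) and Tgtp1 (0.871), Ifit3 for Irgm2 (0.867), Ifit3b for Ifi47 (0.821) and Usp18 for Tgtp2 (0.913). Igtp was nearest to B2m (0.971), which encodes the light chain of class I histocompatibility molecules, and Iigp1 to Atf1 (0.687). Most of these neighbours changed with the setting. In the 24 libraries with at least 16000 genes only Tgtp1 kept its nearest gene, and Irgm1 was nearest to Xaf1, Ifi47 to Dnajb4 and Iigp1 to Herc6. With library totals in place of TMM only Igtp and Tgtp1 kept theirs, and only H2-T22 stayed among those nearest to the mean. Usp18 averaged 178 ± 151 CPM in ALY688+LPS mice, 103 ± 80.4 in LPS mice, 8.19 ± 1.54 in ALY688 mice and 11.6 ± 5.06 in PBS mice, and B2m averaged 3955 ± 2028, 2591 ± 1482, 1331 ± 449 and 2502 ± 1873 CPM in the same groups. These likenesses are descriptions over libraries that share their scaling.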

How the data were processed

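The authors deposited raw read counts per gene, whole numbers with no normalization, in 1 table per mouse. Per the submitters' processing notes the tools were HISAT2 2.0.5, an aligner, and featureCounts 1.5.0-p3, a read counter. Their genome build, annotation release, strand setting and treatment of multi-mapping reads are not stated. Of 34 labelled samples, 30 had a table, and 3 LPS mice and 1 PBS mouse are not analysed here. Symbols, exon lengths and coordinates came from GENCODE M21 (54409 of 54532 IDs matched) and promoter windows from RefSeq. Counts were TMM scaled, filtered with filterByExpr and tested two-sided with edgeR 4.0.16 (quasi-likelihood, R 4.3.3), each fit holding only the groups compared and the interaction all 4. The SE is the log2 fold change over the root of F, and 95% intervals use the t distribution. Alternatives were DESeq2 1.42.0, limma-voom (limma 3.58.1), other scalings, filters and covariates, and left-out libraries. Each test was first tried on simulated counts, with the spread between mice fixed at a dispersion of 0.1 for every gene. Genes with a log2 change of 1 were recovered at 40% in LPS against PBS and 70% in ALY688+LPS against ALY688. In ALY688+LPS against LPS it was 48%, in ALY688 against PBS 80% and in the interaction 24%. With a log2 change of 2 it was 89% in the interaction and at least 96% elsewhere. Depth ran from 9554964 to 17338214 counts. Named genes were all members, the other family loci, Ifng and Irf1, up to 4 genes of each other list with the smallest p, and the nearest genes within groups; 1 gene under this rule is not reported here. Members, lists and tests were chosen with earlier results of these data known.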

Additional observations from a re-analysis of the deposited data

How the results depend on the processing

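Under the alternatives, 11 for each comparison and 10 for the interaction, the 5 members called in LPS against PBS became 3 with limma-voom, 3 with the mouse number as a replicate block and 7 both without TMM and with the globin percentage as a covariate. The block lost Iigp1 (adjusted p = 0.156) and Tgtp1 (adjusted p = 0.139), and the globin covariate gave log2 fold changes of 1.04 for Ifi47 to 4.45 for Tgtp2. Globin percentages did not overlap between LPS and PBS mice, so that covariate cannot be cleanly separated from the group. Leaving out each library in turn gave 3 to 5, with 3 without LPS mouse 7. The count was 4 without the libraries under 16000 genes. The 7 called in ALY688+LPS against ALY688 became 6 without TMM, and leaving out each library in turn always gave 7. With Tgtp1 and Tgtp2 added into 1 gene the counts were 4 of 6 and 6 of 6. None of these alternatives called a member in the other comparisons. Without TMM the median log2 fold change of all genes tested moved to 1.04 in LPS against PBS, −0.494 in ALY688+LPS against LPS, 0.496 in ALY688 against PBS and −0.997 in the interaction. Among uncalled members, signs turned in ALY688+LPS against LPS without TMM (Igtp −0.018, Iigp1 −0.157, Ifi47 −0.128), with the globin covariate (Igtp −0.185, Iigp1 −0.183) and with the block (Iigp1 −0.485). In ALY688 against PBS they turned for Irgm1 (−0.0179 with DESeq2 size factors, −0.0198 with DESeq2, −0.0344 without libraries under 16000 genes, −0.00109 with the block) and, without TMM, for Irgm2 (0.234), Iigp1 (0.303), Ifi47 (0.196), Tgtp1 (0.482) and Tgtp2 (0.156). In the interaction they turned without TMM (Irgm1 −0.405, Irgm2 −0.628, Iigp1 −0.460, Ifi47 −0.324), with the globin covariate (Iigp1 −0.108) and with the block (Irgm2 −0.0204, Iigp1 −0.482). Leaving out single libraries spanned −0.521 to 0.454 for Igtp and −0.189 to 0.196 for Ifi47 in LPS against PBS, −0.244 to 0.229 for Irgm2 and −0.270 to 0.667 for Iigp1 in ALY688+LPS against LPS, −0.0652 to 0.0528 for Irgm1 and −0.146 to 0.0315 for Tgtp1 in ALY688 against PBS, and −0.0821 to 0.855 for Iigp1 in the interaction. The cause of these turns was not tested. Mouse numbers were not taken to pair the animals, as the deviations of same-numbered mice had an r above 0.1 in 2 of 4, 2 of 7, 1 of 3 and 2 of 9 pairs in the 4 comparisons. The block fit drops unmatched mice and used 8 libraries in LPS against PBS. The median r between members, 0.624, was 0.727 in the 24 libraries with at least 16000 genes, 0.619 with a prior count of 0.5 and 0.724 with library totals. With 4 LPS mice, the number of animals limits the precision.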
